A study of Mus musculus with 74 samples.

Results

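Dppa2, Dppa3, Dppa4, Dppa5a, L1td1 and Fbxo15, 6 genes whose RNA is associated with pluripotent cells, were followed through the reprogramming of mouse embryonic fibroblasts (MEFs) in RNA sequencing libraries. They were taken by name from 2 expression tables, and all 6 were found among the 21241 genes of the NSC-medium table and among the 20558 genes of the parallel table. All 6 also passed the filter on low values in both tables, which kept 20760 and 20468 genes. None of the 6 was among the delivered factors.

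The NSC-medium experiment started from MEFs with a Sox2-GFP reporter. These were given a lentiviral transactivator (M2rtTA) and doxycycline (Dox)-inducible lentiviral factors, and were held in neural stem cell (NSC) medium with bFGF and EGF. BKM_FNV cells received Brn4, Klf4, c-Myc and eSox17FNV, an engineered Sox17. In BKM_Sox17 and BKM_Sox2 cells Sox17 or Sox2 took the place of eSox17FNV, and K_FNV cells received Klf4 and eSox17FNV alone. Cells were collected with Dox at days 4, 8, 12 and 18 and after its withdrawal at days 24 and 30. In the parallel experiment MEFs of the genotype Nanog-CreER/Rosa26-tdTomato/Sox2-GFP received M2rtTA, Klf4, c-Myc and eSox17FNV. They were held in N2B27 medium with Dox to day 8 and then split into NSC medium or LIF/2i. LIF/2i holds LIF, the GSK3 inhibitor CHIR99021 and the MEK inhibitor PD0325901 and is used to maintain naive mouse pluripotent cells. Collection was at days 4 and 8 in N2B27, at days 12 and 16 with Dox in either medium, and at days 20 and 24 without Dox. The reference cells, all with the Sox2-GFP reporter and without Dox, were MEFs at passage 1 in MEF medium, primary NSCs at passage 15 in NSC medium, and the induced neural stem cell lines iNSC_KF (Klf4 and eSox17FNV) and iNSC_BKMF (the 4 BKM_FNV factors), both at passage 15 in NSC medium. Every group had 2 libraries except BKM_Sox17 day 30 and BKM_Sox2 day 30, which had 1 each. Libraries of MEFs, NSCs and iNSC_BKMF stand in both tables, and the tables were normalized apart, so no level was compared across them.

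Dppa2, Dppa4 and Dppa5a belong to a set of developmental pluripotency associated genes named for their expression in pluripotent cells, and Dppa3 was named with them. Dppa2 and Dppa4 are chromatin proteins that work as a pair, Dppa3 acts on DNA methylation in eggs, early embryos and germ cells, Dppa5a and L1td1 bind RNA, and Fbxo15 is an F-box protein, the part of an SCF ubiquitin ligase that selects the substrate. In mouse these genes are known as markers that are silent or low in fibroblasts and become active on the way to induced pluripotent cells, and several respond to the factors Pou5f1 and Sox2.

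The values are normalized tag counts, whole numbers that are neither raw counts nor corrected for gene length, so each gene was compared only with itself. Read depth is unknown, and a value of 0 is given as listed at 0. BKM_Sox2 day 24 replicate 1 stood apart, with 24.5% of its genes listed at 0. On the log2(value + 2) scale it correlated at 0.0578 with the other library of its group, where other pairs of that table had 0.949 to 0.961 and pairs of the parallel table reached 0.937 to 0.955. The median of BKM_Sox2 day 24 replicate 1 was 32, against 166 in the other library of its group. Its longest non-falling sequence of values down the rows, with gaps allowed, held 18322 genes. In any other library this was at most 4569. Its values thus nearly followed row order. This library was left out of the results below unless stated. Calls lost or kept with it put back say little about the genes. The summed level of 7 fibroblast marker genes was 178301 to 284577 in the LIF/2i libraries after Dox, against 198357 and 199018 in MEFs. The labelled NSCs carried their defining markers, with a sum over 7 genes of 128540 and 128794, against 1602 to 6209 in the NSC-medium libraries of the parallel experiment after Dox. All libraries are of bulk RNA, so for every gene below fewer expressing cells and less RNA per cell cannot be told apart.

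Between LIF/2i and NSC medium, all 6 genes were higher in LIF/2i after Dox withdrawal, and no library of one medium overlapped the other for any of them. The share of all tested genes that separated in this way was not counted. A difference counted as called below an adjusted p of 0.05 (limma) and from a size of 1 on the log2(value + 2) scale, and the words rose and fell are kept for such differences. By this rule all 6 genes were called after Dox (days 20 and 24), where 24.5% of all tested genes were called in either direction. On Dox (days 12 and 16) 15.5% of all tested genes were called. There 4 of the 6 genes were called, all higher in LIF/2i. The median difference of the 6 genes was 3.58 after Dox and 1.99 on Dox, against medians over all tested genes of -0.10 and -0.03. Markers of pluripotent cells moved with these genes: the summed level of 6 markers was 26341 to 39062 in LIF/2i and 1541 to 5443 in NSC medium after Dox, and 15051 to 19807 against 2259 to 7353 on Dox. Germ cell markers moved too after Dox. Of 7 listed, 6 were in the table, and they summed to 3722 to 7047 in LIF/2i and 1569 to 2019 in NSC medium. Among them Nanos2 was at 0 in every NSC-medium library and at most 1 in LIF/2i. Summed fibroblast markers after Dox ran from 178301 to 284577 in LIF/2i and from 284011 to 302351 in NSC medium. These sums overlapped, as did 4 of the 7 markers, and the other 3 were lower in LIF/2i without overlap. On Dox the sums were 110076 to 199619 against 50509 to 124487. Of 6 trophoblast markers 5 were in the table, and their sum was 672 to 953 against 144 to 458 after Dox and 957 to 1416 against 304 to 454 on Dox, with 1 of the 5 higher in LIF/2i without overlap in either period and, after Dox, another 1 lower. Extraembryonic endoderm markers, 5 of 6 in the table, summed to 63 to 117 against 161 to 321 after Dox. On Dox they summed to 34 to 70 against 105 to 185. These sums were lower in LIF/2i, but only 1 of the 5 genes was lower without overlap in each period. On Dox another 1 was higher without overlap. Markers of the two-cell-like state summed to 9482 to 23637 against 955 to 1452 after Dox, with 6 of 6 higher in LIF/2i without overlap, and to 729 to 1965 against 484 to 725 on Dox, with 0 of 6. The part of these markers in the results was not tested.

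**Figure D1:**
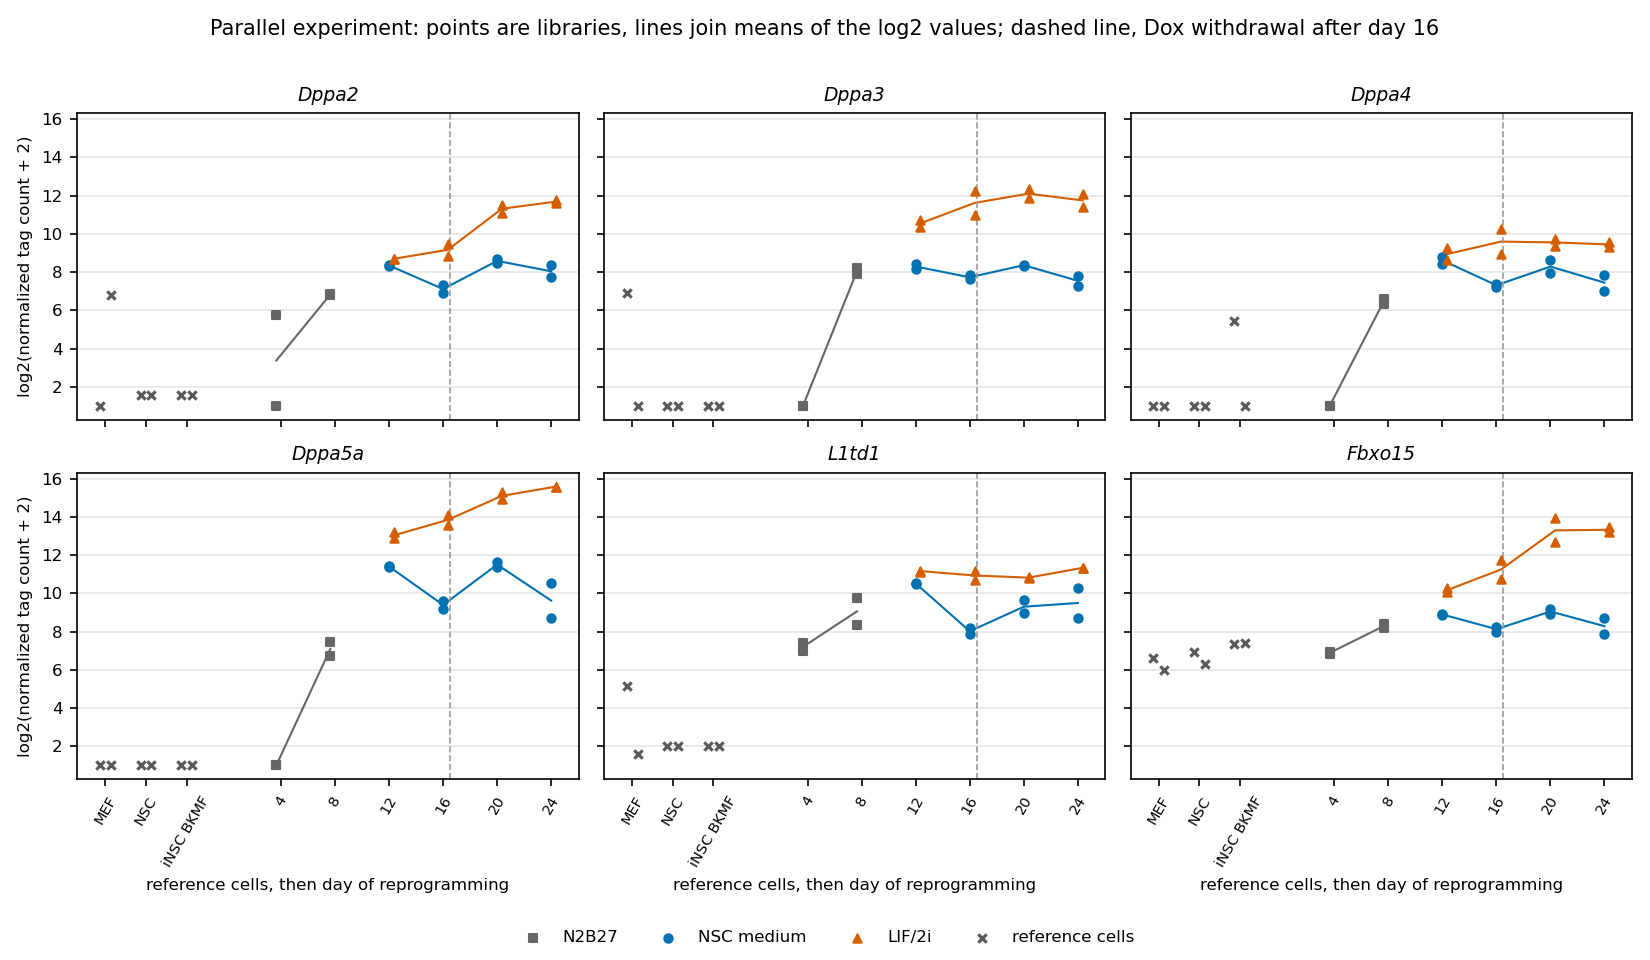
Values of the 6 genes in each library of the parallel experiment, as log2 of the normalized tag count plus 2 on the vertical axis, against the reference cells and the day of reprogramming on the horizontal axis. Points are libraries, lines join the means of the log2 values, and the dashed line marks Dox withdrawal. At days 20 and 24 every LIF/2i library (triangles) lies above every NSC-medium library (circles) in all 6 panels.

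Dppa2 and Dppa4 lie next to each other on chromosome 16 of GRCm38, both on the plus strand, Dppa4 from 48283733 to 48294237 and Dppa2 from 48303908 to 48319723, with 9670 bases between them. Dppa2 stood at 2957 and 2200 in the LIF/2i libraries of day 20 and at 3122 and 3499 at day 24. In NSC medium it stood at 353 and 416 and at 210 and 327 on the same days. Dppa2 rose by 3.19 ± 0.98 (SE) on the log2 scale in LIF/2i over NSC medium after Dox (adjusted p = 0.0123, 4 libraries against 4). On Dox the LIF/2i libraries gave 417 and 410 at day 12 and 714 and 461 at day 16, and the NSC-medium libraries 329 and 318 and then 118 and 159. These ranges did not overlap, but the difference of 1.20 ± 0.98 did not pass the test (adjusted p = 0.338). Within LIF/2i, Dppa2 rose after Dox withdrawal by 2.57 ± 0.98 (adjusted p = 0.0491). That call was lost when any of the 8 LIF/2i libraries was left out (adjusted p = 0.0781 to 0.112) with a pseudocount of 1 (adjusted p = 0.0922) and without the variance trend (adjusted p = 0.0541). Overall 11.6% of tested genes were called between LIF/2i after and on Dox. The pluripotent markers summed to 26341 to 39062 after and 15051 to 19807 on Dox there, with 4 of 6 higher and 1 lower without overlap. Two-cell-like markers summed to 9482 to 23637 and 729 to 1965, with 3 of 6 higher. The part of both lists was not tested.

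Dppa4 had a narrower range in LIF/2i. Its values were 614 and 393 at day 12, 1202 and 498 at day 16, 861 and 654 at day 20 and 776 and 626 at day 24. In NSC medium they were 437 and 348, 148 and 167, 246 and 394, and 129 and 232 on the same days. The media overlapped on Dox, where the difference was 1.31 ± 0.63 (adjusted p = 0.103), and did not overlap after Dox, where Dppa4 rose by 1.63 ± 0.63 (adjusted p = 0.0375). The latter call did not hold in every alternative run. It was lost without either replicate of LIF/2i day 20 or day 24, without NSC-medium day 20 replicate 1 and without NSC-medium day 24 replicate 1, with adjusted p from 0.0592 to 0.114, and also with a pseudocount of 1 (adjusted p = 0.0751). Dppa4 did not pass the test between LIF/2i after and on Dox (0.23 ± 0.63, adjusted p = 0.815). The order of its 13 group means began with LIF/2i days 16, 20 and 24, neighbours whose libraries overlapped, and Dppa2 was ordered LIF/2i day 24, day 20, day 16 and day 12, of which no neighbouring pair overlapped.

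Dppa3, on chromosome 6 from 122626410 to 122630272 on the plus strand, encodes a maternal protein that shields the early genome from loss of DNA methylation. Its transcript matched 2 other annotated genes at 90% identity or more over at least 50% of its length (Dppa3-ps and Gm47576), so reads could have been split among them and its values are uncertain to that extent. In LIF/2i Dppa3 was at 1685 and 1338 on day 12, 4921 and 2015 on day 16, 5248 and 3714 on day 20 and 4399 and 2702 on day 24. All 8 NSC-medium libraries lay between 153 and 337. Dppa3 rose in LIF/2i by 3.07 ± 0.80 on Dox (adjusted p = 0.00579) and by 3.97 ± 0.80 after Dox (adjusted p = 0.00056). The last 3 days in LIF/2i overlapped in their libraries, and only day 12 lay below them among the LIF/2i groups. After withdrawal Dppa3 did not pass the test within LIF/2i (0.84 ± 0.80, adjusted p = 0.434).

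Fbxo15, on chromosome 18 from 84934782 to 84981473 on the plus strand, was the only one of the 6 genes with a value above 50 in every MEF and NSC library of both tables. In LIF/2i it stood at 1231 and 1065 on day 12, at 3411 and 1735 on day 16, at 15437 and 6531 on day 20 and at 11248 and 9340 on day 24. In NSC medium it stood at 459 and 488, 251 and 305, 483 and 577, and 229 and 416. Fbxo15 rose in LIF/2i over NSC medium by 2.20 ± 0.27 on Dox (adjusted p = 1.13e-05) and by 4.64 ± 0.27 after Dox (adjusted p = 1.72e-09). The difference between these differences was itself called, at 2.45 ± 0.38 (adjusted p = 0.000239). In this interaction test 13.9% of all tested genes were called, and of the 6 genes 2 were, Fbxo15 and Dppa5a. Within LIF/2i, Fbxo15 rose after withdrawal by 2.60 ± 0.27 (adjusted p = 3.76e-06).

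Dppa5a, a KH-domain RNA-binding protein, is encoded on the minus strand of chromosome 9 from 78367052 to 78368177. Its transcript matched 8 other annotated genes at 90% identity or more over at least 50% of its length (Gm10112, Gm11649, Gm15310, Gm5229, Gm5250, Gm6083, Gm6798 and Pigp), so its values carry the same uncertainty as those of Dppa3. Dppa5a was listed at 0 in MEFs, NSCs, iNSC_BKMF cells and both N2B27 day 4 libraries. In LIF/2i it reached 9340 and 7486 on day 12, 17710 and 12178 on day 16, 39802 and 30887 on day 20 and 49058 in both libraries of day 24. At day 24 just 14 genes had a higher value in each LIF/2i library, and this equal place gives the equal values after the normalization. In NSC medium Dppa5a stood at 2685 and 2713, 583 and 769, 2655 and 3165, and 410 and 1502. The rise in LIF/2i over NSC medium was 3.04 ± 0.28 on Dox (adjusted p = 7.22e-07) and 4.78 ± 0.28 after Dox (adjusted p = 2.06e-09), and the interaction was 1.74 ± 0.40 (adjusted p = 0.00378). Its 4 LIF/2i days did not overlap one another and were in order of time, with day 24 the highest, and within LIF/2i Dppa5a rose after withdrawal by 1.90 ± 0.28 (adjusted p = 0.000102).

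L1td1, which derives from a LINE-1 retrotransposon reading frame and binds RNA, lies on chromosome 4 from 98726734 to 98738480 on the plus strand. It was already at 2250 and 2327 in LIF/2i on day 12 and stayed near that level, at 2286 and 1667 on day 16, 1788 and 1820 on day 20 and 2583 and 2567 on day 24. In NSC medium it was at 1423 and 1497 on day 12, 231 and 285 on day 16, 491 and 802 on day 20 and 421 and 1225 on day 24. L1td1 rose in LIF/2i by 1.78 ± 0.55 on Dox (adjusted p = 0.0168) and by 1.68 ± 0.55 after Dox (adjusted p = 0.0175). Without NSC-medium day 20 replicate 1 the adjusted p after Dox was 0.0623, and without NSC-medium day 24 replicate 1 it was 0.0853. Its interaction was -0.10 ± 0.78 (adjusted p = 0.959). The 250 bases before its RefSeq start (GRCm38.p6, chr4:98726504-98726753, plus strand) are shown because L1td1 is the 1 gene of the 6 found in the RefSeq promoter table, and because its course set it apart in time from Dppa5a and Fbxo15. CG dinucleotides are in capitals.
L1td1 upstream region: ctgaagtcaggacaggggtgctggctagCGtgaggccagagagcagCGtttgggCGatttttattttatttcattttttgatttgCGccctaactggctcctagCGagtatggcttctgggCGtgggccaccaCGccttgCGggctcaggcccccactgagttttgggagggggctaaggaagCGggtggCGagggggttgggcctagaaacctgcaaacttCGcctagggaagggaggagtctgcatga
The window holds 11 CG dinucleotides and 57.6% G or C, against medians of 6 and 52.4% over 32536 windows of the same length, of which 66.3% held no more CG. Neither ATTTGCAT, the octamer bound by POU factors, nor CATTGT, an element bound by Sox factors, was found in it on either strand. These letters occur in 1.62% and 10.5% of all such windows.

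**Figure D2:**
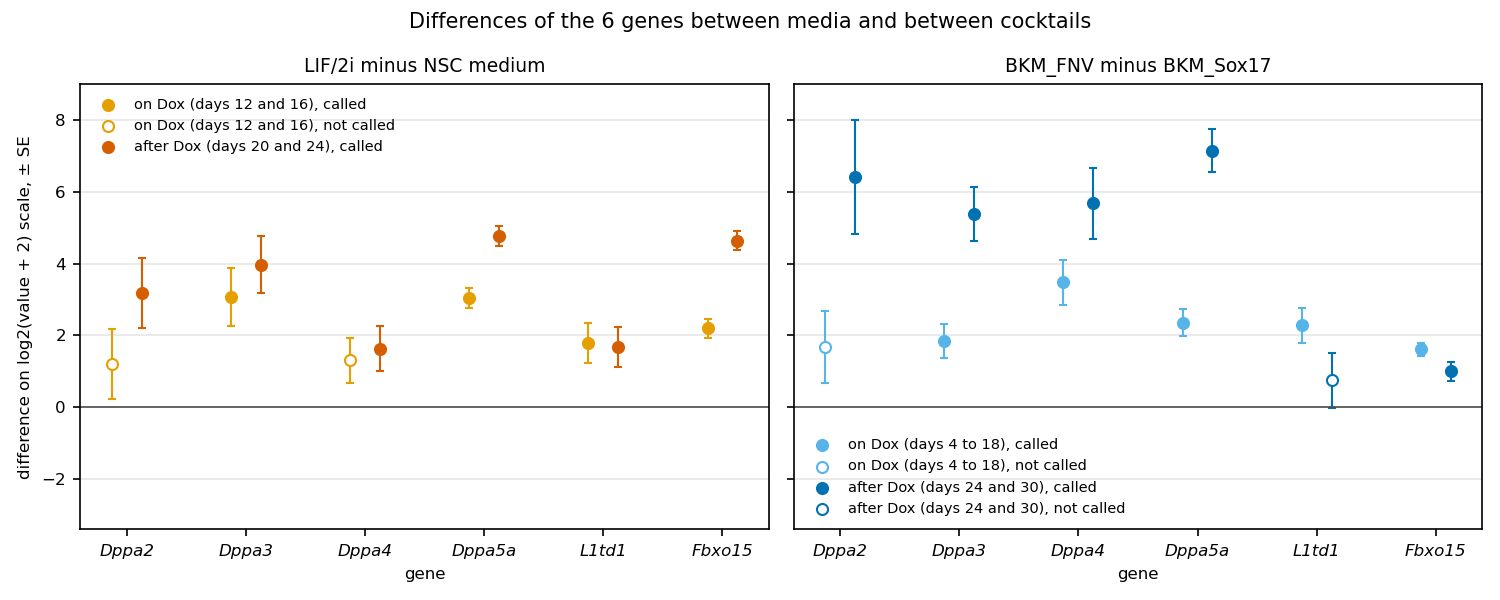
Differences of the 6 genes on the log2(value + 2) scale (vertical axis) between LIF/2i and NSC medium (left) and between BKM_FNV and BKM_Sox17 cells (right), on and after Dox. Points are fitted differences, bars are ± 1 SE, and filled points were called. After Dox all 6 genes were called between the media, and 5 of 6, all but L1td1, between the cocktails.

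In NSC medium of the parallel experiment none of the 6 genes was called between the days after Dox and the days on Dox, in a comparison that called 20.5% of tested genes. The limma differences ran from -0.09 ± 0.63 for Dppa4 to 0.58 ± 0.98 for Dppa2, none of the 6 had an unadjusted p below 0.05, and the ranges overlapped for all 6. Single days did move apart within these periods. Every gene was lower in both day 16 libraries than in both day 12 libraries, and higher in both day 20 libraries than in both day 16 libraries. L1td1, for example, went from 1423 and 1497 at day 12 to 231 and 285 at day 16, and Dppa5a from 2685 and 2713 to 583 and 769 and then to 2655 and 3165. The summed fibroblast markers were 50509 to 55135 at day 12, 99931 to 124487 at day 16 and 289937 to 293193 at day 20. These day-by-day differences were seen in the values and were not tested. The share of all genes that separated in this way was not counted, so they are not read as a trait of the 6 genes.

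The start of the parallel course was compared next. In N2B27 at day 4 Dppa3, Dppa4 and Dppa5a were listed at 0 in both libraries, and Dppa2 was at 0 and 52. Compared with MEFs, which had another genotype, medium and no Dox, L1td1 alone of the 6 was called, with 125 and 168 at day 4 against 34 and 1 (3.82 ± 0.78, adjusted p = 0.00122), where 18.4% of tested genes were called. With the variance taken from those groups alone its adjusted p was 0.0937. From day 4 to day 8 of N2B27, a comparison that called 4.71% of tested genes, 4 of the 6 genes rose. Dppa3 reached 294 and 238 (adjusted p = 0.00141), Dppa4 78 and 95 (adjusted p = 0.00156) and Dppa5a 171 and 105 (adjusted p = 1.46e-07), each from a group listed at 0. Fbxo15 went from 111 and 121 to 286 and 335 (1.40 ± 0.38, adjusted p = 0.0288). This last call was lost when any of the 4 libraries was left out (adjusted p = 0.0581 to 0.153). Over the same days summed pluripotent markers went from between 744 and 828 to between 1972 and 4901, with 6 of 6 higher at day 8 without overlap, and trophoblast markers from between 113 and 139 to between 388 and 896, with 3 of 5 higher. NSC markers went from between 1427 and 1633 to between 2452 and 2496, with 5 of 7 higher, and 16 of 23 core and naive genes rose. The part of these genes was not tested.

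Both media were then set against N2B27 day 8. In LIF/2i at day 12, where 14.5% of tested genes were called, Dppa5a rose by 5.94 ± 0.40 (adjusted p = 1.18e-07), Dppa4 by 2.49 ± 0.89 (adjusted p = 0.0425) and Fbxo15 by 1.88 ± 0.38 (adjusted p = 0.00141). The Dppa4 call was lost when any of the 4 libraries was left out (adjusted p = 0.0738 to 0.189) and with a pseudocount of 1 (adjusted p = 0.0857). In NSC medium at day 12, where 16.1% were called, Dppa5a rose by 4.31 ± 0.40 (adjusted p = 1.55e-06), and the other 5 genes were not called. At day 12 pluripotent markers summed to 15051 to 15579 in LIF/2i and 7320 to 7353 in NSC medium, and fibroblast markers 170277 to 199619 and 50509 to 55135, against 263594 to 269060 in N2B27 at day 8, and their part was not tested. Dppa3 had 289 and 337 in NSC medium at day 12 against 294 and 238 in N2B27 at day 8 (0.24 ± 1.13, adjusted p = 0.929).

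Genes that act with the 6, or in the same states, were taken from lists of known genes. Their counts stand beside the 24.5% of all tested genes called after Dox and the 15.5% called on Dox, in either direction. After Dox, 18 of 23 core and naive pluripotency genes rose in LIF/2i and none fell, with a list median of 3.35. Pou5f1, the POU factor at the centre of the network, stood at 8087 to 9605 in LIF/2i and 618 to 2070 in NSC medium (2.77 ± 0.32, adjusted p = 2.52e-06), and Nanog at 8832 to 14544 against 342 to 692 (4.51 ± 0.18, adjusted p = 2.84e-11). The largest differences among called genes of that list were those of the nuclear receptor genes Nr0b1 (6.93 ± 0.33) and Esrrb (6.35 ± 0.35) and of Tdh, a threonine dehydrogenase gene (6.18 ± 0.50). Of 12 formative and primed genes 6 rose, among them Foxd3 (4.41 ± 0.38) and Lefty2 (2.56 ± 0.57), and 3 fell, among them Fgf5, a growth factor gene of primed cells (-3.48 ± 0.49). The list of two-cell-like genes, which Dppa2 and Dppa4 help to activate, had 11 of its 12 genes tested. Of these 9 rose, including Tmem92 (5.25 ± 0.38), Gm4340 (4.82 ± 0.66) and Zscan4f (4.31 ± 1.04). Zscan4 genes and Gm4340 are members of families of near-identical copies, and their single values are uncertain.

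For the DNA methylation genes, the setting in which Dppa3 acts, 2 of 8 rose after Dox and 1 fell, 3 of 8 in either direction, and nothing is read from this count beside the 24.5% of all tested genes. Tet1, a 5-methylcytosine oxidase gene, rose by 2.03 ± 0.19, and Uhrf1, whose protein brings Dnmt1 to replicated DNA, by 1.71 ± 0.19, while Tet3 fell (-1.64 ± 0.34). All 5 KH-domain relatives of Dppa5a rose. Khdc1c was at 410 to 548 in LIF/2i and listed at 0 in NSC medium (adjusted p = 1.67e-14), Khdc1a rose by 6.18 ± 0.85 and Khdc1b by 4.91 ± 0.61, again with close copies among them. Of the partners of F-box proteins, 4 were tested and none was called, since all differences were below 1, from -0.31 ± 0.06 for Cul1 to 0.58 ± 0.19 for Skp1a. On Dox the counts of genes that rose were 20 of 23 core and naive, 6 of 12 formative and primed, 6 of 11 two-cell-like, 7 of 8 DNA methylation, 3 of 5 KH-domain and 0 of 4 F-box partner genes, and none fell. Without NSC-medium day 12 replicate 1 the two-cell-like count was 3, and without replicate 2 of LIF/2i day 12 or of LIF/2i day 16 the DNA methylation count was 4.

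**Figure D3:**
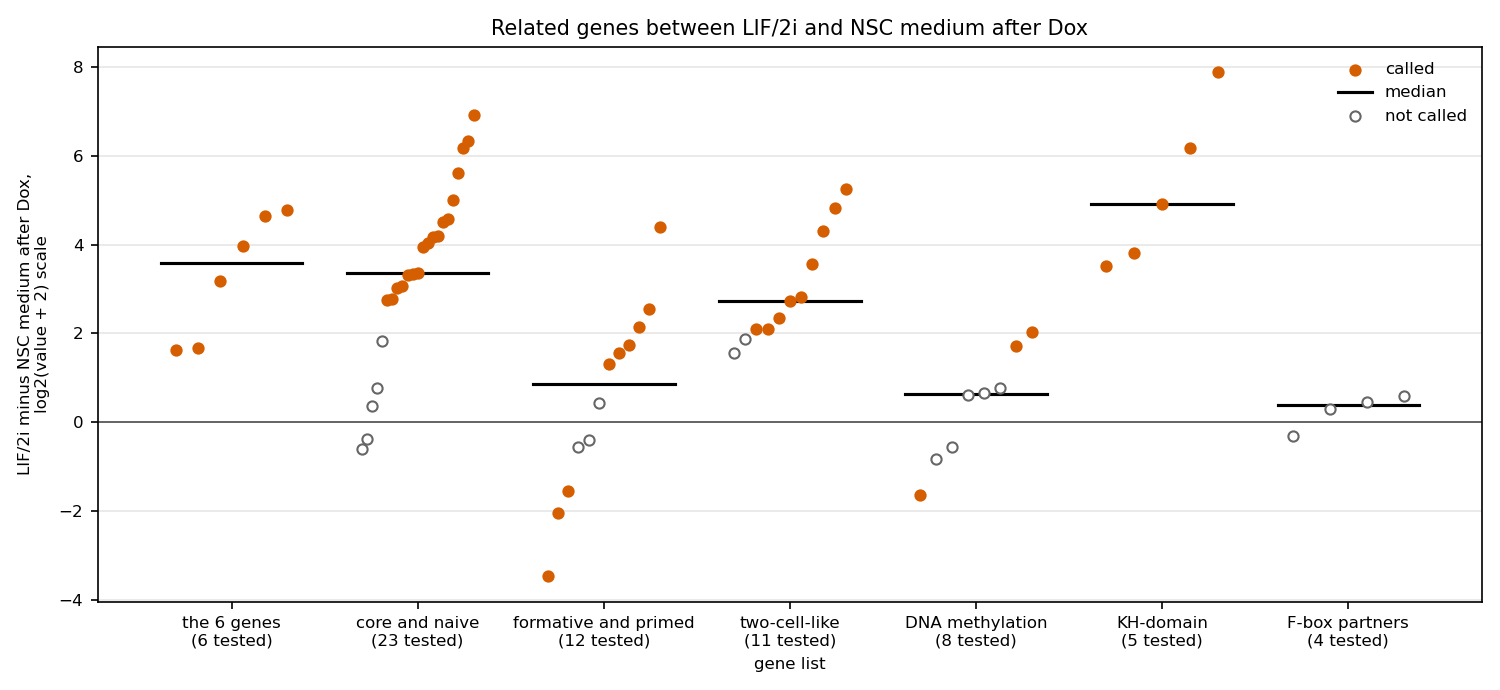
Difference between LIF/2i and NSC medium after Dox on the log2(value + 2) scale (vertical axis) for the 6 genes and for the tested genes of each related list (horizontal axis). Each point is a gene, filled where called, and black bars are medians. The core and naive list has a median of 3.35, and the 6 genes one of 3.58.

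In the NSC-medium experiment all 6 genes had their highest group mean of the 28 groups in BKM_FNV cells at day 24, after Dox. The order below sets days 24 and 30 beside earlier days, whose library descriptions are written in another style, so a batch of that kind and the day cannot be told apart. Dppa2 was at 230 and 263, Dppa3 at 162 and 149, Dppa4 at 148 and 163, Dppa5a at 689 and 709, L1td1 at 689 and 760 and Fbxo15 at 276 and 261. The next group in order did not overlap for Dppa2 (BKM_FNV day 30), Dppa3 and Dppa4 (BKM_FNV day 18), Dppa5a (BKM_FNV day 30) and L1td1 (BKM_FNV day 8), and for Fbxo15 it did (BKM_FNV day 12). Low values flickered in this table. In 8 of 28 groups Dppa2 was at 0 in one library and above 0 in the other, up to 137 in an iNSC_KF library, for Dppa3 the same held in 2 groups, up to 108 in a MEF library, for Dppa4 in 5 groups, up to 70, and for Dppa5a in 3, up to 28. A single value in these ranges beside a 0 was not read as expression, and the Dppa4 values behind its calls on Dox below are of this size. The same holds for Dppa3 at day 18, at 87 and 93 in BKM_FNV and 29 and 49 in K_FNV. At day 30 of BKM_FNV it holds for Dppa2 (103 and 130), Dppa3 (39 and 45) and Dppa4 (61 and 71).

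**Figure D4:**
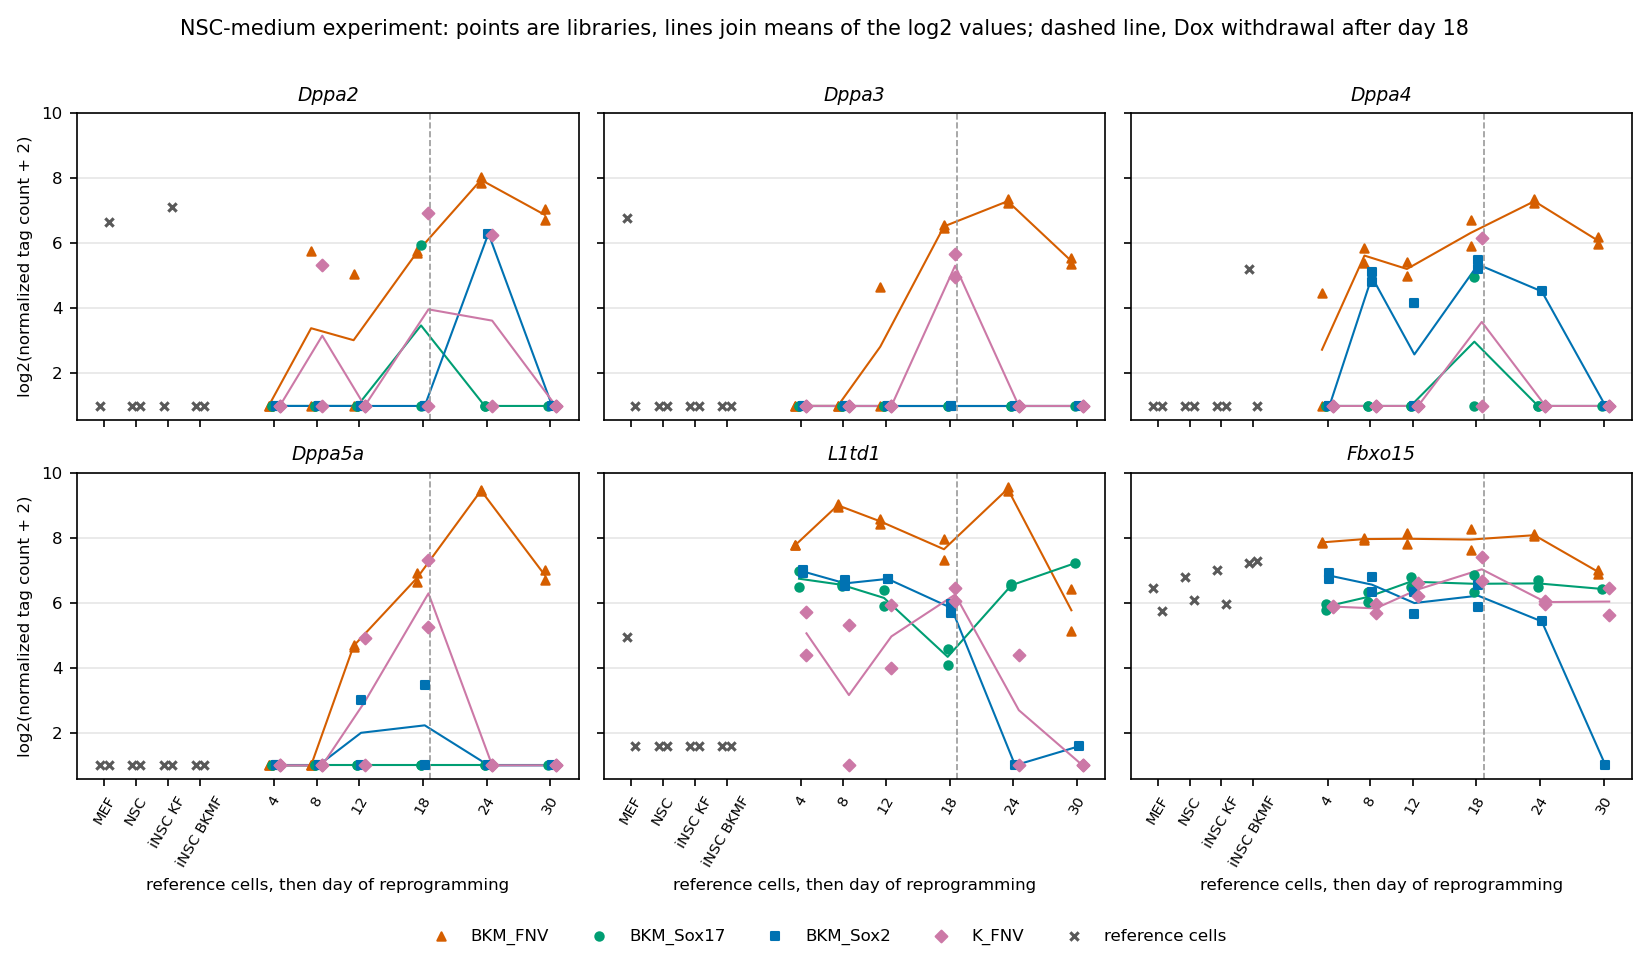
Values of the 6 genes in each library of the NSC-medium experiment, as log2 of the normalized tag count plus 2 (vertical axis), against the reference cells and the day of reprogramming (horizontal axis). Points are libraries, lines join the means of the log2 values, the dashed line marks Dox withdrawal, and the library that stood apart is not drawn. BKM_FNV cells (triangles) hold the highest group mean of each gene, at day 24.

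On Dox, BKM_FNV and BKM_Sox17 cells differed in 5 of the 6 genes, all higher in BKM_FNV, where 3.72% of tested genes were called. L1td1 ran from 158 to 529 in the 8 BKM_FNV libraries of days 4 to 18 and from 15 to 125 in those of BKM_Sox17 (2.29 ± 0.49, adjusted p = 0.000814). Fbxo15 ran from 195 to 306 against 53 to 113 (1.61 ± 0.17, adjusted p = 3.86e-08). Neither gene overlapped between the cocktails. Dppa5a was listed at 0 in all 8 BKM_Sox17 libraries, and in BKM_FNV it was at 0 on days 4 and 8, at 23 and 24 on day 12 and at 97 and 119 on day 18 (adjusted p = 3.09e-05). Dppa3 was likewise at 0 throughout in BKM_Sox17, and in BKM_FNV at 0 on days 4 and 8, at 23 and 0 on day 12 and at 93 and 87 on day 18 (adjusted p = 0.00508). Dppa4 was above 0 in 7 of 8 BKM_FNV libraries, from 20 to 103, and in 1 of 8 BKM_Sox17 libraries, at 29 (3.48 ± 0.63, adjusted p = 0.000128). Dppa2 did not pass the test (1.67 ± 1.00, adjusted p = 0.239).

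Of these calls, those of Dppa3 and L1td1 moved with the processing. With a pseudocount of 16 the Dppa3 difference was 0.84, under the threshold of 1, and with the library that stood apart put back the adjusted p of L1td1 was 0.0559. In the same comparison Pou5f1 rose by 6.09 ± 0.21 (adjusted p = 2.4e-18), from 0 to 11 in BKM_Sox17 to 2 to 1850 in BKM_FNV, and Nanog by 1.43 ± 0.27 (adjusted p = 0.000216, and 0.0718 with that library put back). Of 21 tested core and naive genes 9 rose and 2 fell, of 10 formative and primed genes 4 rose, of 10 two-cell-like genes 1 rose, Zfp352, a zinc-finger gene (2.63 ± 0.59), and none of 8 DNA methylation, 4 KH-domain and 4 F-box partner genes was called. The Zfp352 call was lost with the variance from the compared groups alone (adjusted p = 0.0681). Without BKM_FNV day 18 replicate 2 the count of two-cell-like genes called was 4, and with a pseudocount of 16 that of core and naive genes, in either direction, was 6. Apart from Pou5f1 the named core and naive gene was Zfp42 (3.64 ± 0.64), and in the formative and primed list they were Lefty2 (4.86 ± 0.19) and Cldn6 (2.77 ± 0.19). Summed pluripotent markers were 118 to 2437 in BKM_FNV and 19 to 140 in BKM_Sox17, and summed NSC markers 2749 to 5728 against 803 to 1961. Their part in the differences of the 6 genes was not tested.

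Against BKM_Sox2 on Dox, 4 of the 6 genes were higher in BKM_FNV cells, where 6.18% of tested genes were called. Fbxo15 rose by 1.53 ± 0.17 (adjusted p = 3.9e-08) over a BKM_Sox2 range of 48 to 120, and L1td1 by 1.70 ± 0.49 (adjusted p = 0.00756) over a range of 50 to 127. Dppa3, listed at 0 in all 8 BKM_Sox2 libraries, was called with adjusted p = 0.00343, and Dppa5a, at 6 and 9 in single BKM_Sox2 libraries and 0 in the others, with adjusted p = 0.000465. With a pseudocount of 16 the Dppa3 and Dppa5a differences were 0.84 and 0.93, under the threshold, and with all libraries the adjusted p of L1td1 was 0.162. Dppa4 did not pass (adjusted p = 0.0692). It was at 33 and 26 in BKM_Sox2 at day 8 and at 35 and 43 at day 18. In BKM_Sox2 on Dox pluripotent markers summed to 59 to 159 against 118 to 2437 in BKM_FNV, and their part was not tested. Between BKM_Sox17 and BKM_Sox2, where 3.98% were called, Dppa4 fell (-1.98 ± 0.63, adjusted p = 0.0207) and the other 5 genes were not called. That call was lost without BKM_Sox17 day 18 replicate 2 (adjusted p = 0.0838), without BKM_Sox2 day 12 replicate 2 (adjusted p = 0.0818), with all libraries (adjusted p = 0.0666) and with a pseudocount of 16 (-0.76).

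K_FNV cells, which lack Brn4 and c-Myc, were lower than BKM_FNV cells on Dox in Dppa4 (-3.33 ± 0.63, adjusted p = 4.5e-05), L1td1 (-3.37 ± 0.49, adjusted p = 8.35e-07) and Fbxo15 (-1.64 ± 0.17, adjusted p = 1.89e-09), where 14.5% of tested genes were called. L1td1 ran from 0 to 86 and Fbxo15 from 50 to 167 in the 8 K_FNV libraries. Dppa3 and Dppa5a did not pass the test there (-0.76 ± 0.48 and -0.55 ± 0.38). Both were above 0 in both K_FNV libraries of day 18, Dppa3 at 29 and 49 and Dppa5a at 36 and 159. In K_FNV on Dox pluripotent markers summed to 38 to 372, and extraembryonic endoderm markers 493 to 1000 against 99 to 185 in BKM_FNV, and their part was not tested. The higher of the day 18 libraries, replicate 2, also held Dppa2 at 121 and Dppa4 at 70, each listed at 0 in replicate 1.

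The change from day 4 to day 18 was taken within each cocktail. In BKM_FNV (22.9% of tested genes called) Dppa3 and Dppa5a rose from 0 in both libraries (adjusted p = 1.73e-05 and 2.79e-07), and Dppa4 rose from 20 and 0 to 59 and 103 (3.59 ± 1.25, adjusted p = 0.0194). Dppa4 lost its call without BKM_FNV day 4 replicate 2 (1.86, adjusted p = 0.362), without BKM_FNV day 18 replicate 2 (adjusted p = 0.109), with all libraries (adjusted p = 0.0562) and with the variance from those groups alone (adjusted p = 0.125). In K_FNV (10.4% called) Dppa3 (adjusted p = 0.000842), Dppa5a (adjusted p = 4.34e-06) and Fbxo15 (1.15 ± 0.34, adjusted p = 0.0098) rose. Without K_FNV day 18 replicate 2 the Fbxo15 difference was 0.78 (adjusted p = 0.182), without K_FNV day 4 replicate 2 its adjusted p was 0.0544, with all libraries it was 0.513 and with the variance from those groups alone 0.0857, and with a pseudocount of 16 the difference was 0.99. In BKM_Sox2 (17.0% called) Dppa4 rose from 0 in both libraries to 35 and 43 (adjusted p = 0.0059). In BKM_Sox17 (19.0% called) L1td1 fell from 88 and 125 to 15 and 22 (-2.40 ± 0.97, adjusted p = 0.0462), a call lost when any of the 4 libraries was left out (adjusted p = 0.0863 to 0.182) with all libraries (adjusted p = 0.39) and with a pseudocount of 1 (adjusted p = 0.0875). Summed pluripotent markers went from between 118 and 155 to between 1148 and 2437 in BKM_FNV, and from between 56 and 63 to between 163 and 372 in K_FNV. Fibroblast markers went from between 76220 and 87119 to between 217293 and 219588, and from between 154113 and 154227 to between 209770 and 223271. All 7 were higher in BKM_FNV, and in K_FNV 5 were higher and 2 lower without overlap. Their part was not tested. The change differed between BKM_FNV and BKM_Sox17 for Dppa3 (adjusted p = 0.0147) and Dppa5a (adjusted p = 0.0016) in an interaction test that called 2.13% of tested genes. For Dppa3 the adjusted p was 0.135 with all libraries and 0.0505 without BKM_Sox17 day 4 replicate 1.

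After Dox withdrawal (days 24 and 30) Dppa2, Dppa3, Dppa4 and Dppa5a were listed at 0 in all 3 BKM_Sox17 libraries. In the 4 BKM_FNV libraries Dppa2 ran from 103 to 263 (adjusted p = 0.00124), Dppa3 from 39 to 162 (adjusted p = 9.44e-07), Dppa4 from 61 to 163 (adjusted p = 2.38e-05) and Dppa5a from 101 to 709 (adjusted p = 9.95e-11). Fbxo15 also rose over BKM_Sox17 (1.00 ± 0.27, adjusted p = 0.00229), at 116 to 276 against 84 to 102, and so 5 of the 6 genes were called where 17.8% of tested genes were. The Fbxo15 difference lay at the threshold. It fell below 1 with a pseudocount of 16 (0.91), without BKM_FNV day 24 replicate 1 (0.98), without BKM_FNV day 30 replicate 2 (0.97) and without BKM_Sox17 day 24 replicate 1 (0.95), and with all libraries its adjusted p was 0.235. L1td1 was not called (0.76 ± 0.77, adjusted p = 0.443), with 89, 93 and 147 in BKM_Sox17 and 33 to 760 in BKM_FNV. Summed pluripotent markers were 285 to 3668 in BKM_FNV and 83 to 140 in BKM_Sox17, where Pou5f1, Tdgf1 and Zfp42 were at 0. Summed NSC markers were 8821 to 16077 against 473 to 1254, germ cell markers 1042 to 1716 against 34 to 594 (4 of 6 higher without overlap), and two-cell-like markers 570 to 780 against 3 to 4 (4 of 6). Trophoblast markers were lower, at 49 to 167 against 186 to 252 (2 of 4). Of 10 two-cell-like genes tested 9 rose, and of 21 core and naive genes 16 rose and 2 fell. The part of these genes was not tested.

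BKM_Sox2 after Dox rested on 1 library of day 24 and 1 of day 30, with Fbxo15 at 41 and 0 and L1td1 at 0 and 1. Dppa3 and Dppa5a were listed at 0 in both, Dppa4 was at 21 and 0 and Dppa2 at 77 and 0. BKM_FNV was higher in 5 of the 6 genes, all but Dppa2 (3.76 ± 1.74, adjusted p = 0.079), where 15.1% of tested genes were called. With the library that stood apart put back the same 5 were called, with adjusted p from 2.56e-09 for Dppa5a to 0.00261 for Dppa4. Summed pluripotent markers were 61 to 71 in BKM_Sox2 (5 of 6 higher in BKM_FNV without overlap), NSC markers 1571 to 5449 (6 of 7), germ cell markers 499 to 641 (4 of 6) and two-cell-like markers 4 to 5 (4 of 6), and their part was not tested. Against K_FNV, where 21.7% were called, all 6 genes were higher in BKM_FNV. In the 4 K_FNV libraries Dppa3, Dppa4 and Dppa5a were listed at 0, Dppa2 was at 74 in one library and 0 in the others (adjusted p = 0.0032), L1td1 was at 19 in one and 0 in the others (adjusted p = 3.29e-08), and Fbxo15 ran from 47 to 86 (adjusted p = 4.85e-06). Summed pluripotent markers were 21 to 48 in these K_FNV libraries, and NSC markers 2254 to 3136. Two-cell-like markers were 1 to 3 there, and extraembryonic endoderm markers 561 to 1369 against 39 to 171 in BKM_FNV. Their part was not tested. The comparisons of BKM_FNV with the other cocktails share the BKM_FNV libraries.

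From day 24 to day 30 BKM_FNV cells fell in 3 of the 6 genes, in a comparison with 14.8% of tested genes called. Dppa5a went from 689 and 709 to 128 and 101 (-2.60 ± 0.76, adjusted p = 0.00778), L1td1 from 689 and 760 to 83 and 33 (-3.73 ± 0.97, adjusted p = 0.00297) and Fbxo15 from 276 and 261 to 116 and 128 (-1.13 ± 0.34, adjusted p = 0.0089). The other 3 genes did not pass the test. No library of day 30 reached the day 24 range for any of the 6, but the share of all genes without overlap was not counted. Without BKM_FNV day 30 replicate 2 the adjusted p was 0.0551 for Dppa5a and 0.0518 for L1td1. Fbxo15 had adjusted p of 0.0525 without BKM_FNV day 24 replicate 1 and 0.0585 without BKM_FNV day 30 replicate 1, and with all libraries L1td1 had 0.0965 and Fbxo15 0.437. Over the same days summed pluripotent markers went from between 3635 and 3668 to between 285 and 298, with all 6 lower in both day 30 libraries. Summed NSC markers went from between 8821 and 8828 to between 15438 and 16077, with 6 of 7 higher. Germ cell (4 of 6), extraembryonic endoderm (4 of 6), trophoblast (3 of 4) and two-cell-like markers (4 of 6) were also lower without overlap. Higher without overlap were 1 germ cell and 1 trophoblast marker and 3 of 7 fibroblast markers. Their part was not tested. At day 30 BKM_FNV cells were still above NSCs in 5 of the 6 genes, all but Fbxo15 (0.52 ± 0.34, adjusted p = 0.199), in a comparison with 28.2% of tested genes called. Dppa3, Dppa4 and Dppa5a were listed at 0 in both NSC libraries of that table, as was Dppa2, and L1td1 was at 1 (4.18 ± 0.97, adjusted p = 0.000557). Summed fibroblast markers were 203090 to 210252 in these cells and 374 to 576 in NSCs, and two-cell-like markers 570 to 674 and 6. Pluripotent markers summed to 285 to 298 and 169 to 222, with 3 of 6 higher than in NSCs and 2 lower without overlap. NSC markers summed to 15438 to 16077 and 115964 to 115971, with 7 of 7 lower. Their part was not tested. The call of Dppa2 was lost without BKM_FNV day 30 replicate 1 (adjusted p = 0.0597) and without either NSC library (adjusted p = 0.0515 and 0.0533).

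In the reference cells Dppa5a was listed at 0 in all 8 libraries of the NSC-medium table, and L1td1 was at 1 in all but one MEF library, at 29. Dppa3 was called lower in NSCs than in MEFs (34.4% of tested genes called, adjusted p = 0.0106) and lower at day 4 of the 4 cocktails than in MEFs (18.1% called, adjusted p = 0.00193). Both calls came from 1 MEF library at 108, beside 0 in the other, and without it no difference was left. L1td1 rose by day 4 of the cocktails (3.37 ± 0.77, adjusted p = 0.000514), with 216 and 218 in BKM_FNV, 88 and 125 in BKM_Sox17, 127 and 119 in BKM_Sox2 and 19 and 51 in K_FNV. Without the MEF library at 1 the difference was 1.68 (adjusted p = 0.154).

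Genes of most similar course were named for each of the 6 by the correlation of group means on the log2(value + 2) scale. These are descriptions over 13 groups of the parallel table and 28 of the NSC-medium table, groups that share their reference libraries and normalization. In the parallel table Dppa5a was closest to Mep1b (r = 0.992), Zfp42 (0.985) and Ooep (0.981), and Dppa3 to Zfp42 (0.98), Mep1b (0.979) and Pramef12 (0.97). Dppa2 was closest to Pramef12 (0.983), Ooep (0.976) and Eprn (0.974), and Dppa4 to Nlrp12 (0.988), Zfp989 (0.979) and Mep1b (0.978). L1td1 had Pou5f1 (0.984), Platr10 (0.983) and Sall4 (0.981), and Fbxo15 had Taf7 (0.981), Nanog (0.98) and Cox7a1 (0.979). Among the 6 genes themselves r was 0.968 for Dppa2 and Dppa3, 0.974 for Dppa4 and Dppa5a, and 0.756 for Fbxo15 and L1td1.

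In the NSC-medium table the highest r of each gene was lower. Of its 53 libraries used, Dppa2, Dppa3, Dppa4 and Dppa5a were listed at 0 in 38, 43, 33 and 40. L1td1 was listed at 0 in 5 and Fbxo15 in 1. The part of these zeros was not tested. Dppa3 and Dppa5a were at r = 0.924 with each other, and both had Mageb16 first (0.924 and 0.917). Dppa3 was then followed by 3830417A13Rik (0.909) and Hormad1 (0.879), and Dppa5a by Trap1a (0.906) and Ooep (0.893). L1td1 was again near Sall4 (0.861), with Tdh (0.857) and Fgf15 (0.851), and Dppa4 near Slc27a2 (0.752), Pou5f1 (0.737) and Lefty2 (0.735). Dppa2 gave Nhlh2 (0.813), Chrna3 (0.799) and Gm5039 (0.764), and Fbxo15 gave Cd36 (0.848), Diras2 (0.841) and Wif1 (0.827). Dppa2 and L1td1 had r = 0.0805 there and 0.926 in the parallel table.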

How the data were processed

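Poly(A) RNA of 74 samples in 38 groups was sequenced, per the labels' protocols. Per the submitters' processing notes the authors used Bowtie2 2.0, RSEM and mm10. The deposited values are recorded as a score, because the authors' whole-number normalized tag counts are neither counts nor a per-million unit, and columns of a table share nearly the same distribution. Read depth is unknown and limits what values near 0 can show. A further 4 columns (1 and 3 per table) matched no labelled sample and were not used, and NSC columns were matched to their group only.

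Values were compared as log2(value + 2) for genes with at least 10 in at least 2 libraries, with limma 3.58.1 in R 4.3.3 (1 mean per group, variance trend, two-sided, Benjamini-Hochberg adjustment over all tested genes, 25 comparisons). Comparisons of media or cocktails over several days average within-day differences. Comparisons of the time after Dox with that on Dox set the mean of the later days against that of the earlier days. In these, day and Dox withdrawal cannot be told apart. The code was tested on simulated data. Whether replicates came from separate cultures is not given in the labels, so p-values measure only the spread between these libraries, which may be technical. In the labels' description field the NSC-medium libraries of days 24 and 30 are named in another style than earlier ones, and no test sets those days against earlier days of a cocktail, though the order of levels does. Gene models are GENCODE M21 (GRCm38).

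The members and lists were chosen with earlier results of these data known. Named genes were the members; from each list up to 3 called genes of largest change between the media after Dox and up to 2 between BKM_FNV and BKM_Sox17 on Dox; Pou5f1 and Nanog; and the 3 most similar genes per member and table with a group mean of at least 100. Alternatives were pseudocounts of 1 and 16, no filter, rescaling, other variance models, a replicate block, each library left out, and all libraries.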

Additional observations from a re-analysis of the deposited data

Results flagged for a closer look

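The difference between LIF/2i and NSC medium was larger after Dox than on Dox for Dppa5a (interaction 1.74 ± 0.40 on the log2 scale, adjusted p = 0.00378) and for Fbxo15 (2.45 ± 0.38, adjusted p = 0.000239), in limma's test of the difference between differences. In LIF/2i Dppa5a was higher in all 4 libraries after Dox than in all 4 on Dox, and so was Fbxo15, while in NSC medium the 2 periods overlapped for both. The change from day 4 to day 18 differed between BKM_FNV and BKM_Sox17 cells for Dppa3 (5.52 ± 1.35, adjusted p = 0.0147) and Dppa5a (5.77 ± 1.08, adjusted p = 0.0016). Both genes were listed at 0 in all 4 BKM_Sox17 libraries of those days and in both BKM_FNV libraries of day 4, so these 2 values depend on the pseudocount and carry no fold. No cause was tested for any of them.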

How the results depend on the processing

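Read depth is unknown, and values near 0 limit what can be told of Dppa2, Dppa3, Dppa4 and Dppa5a in most groups. Less limited are the groups of the parallel experiment from day 8 on and BKM_FNV cells at day 24. For Dppa5a alone of these genes, BKM_FNV cells at days 18 and 30 are less limited as well. No called value turned its direction under an alternative. Of 74 calls of the 6 genes 50 held under every alternative run, and the others are named with their lost values in the report. The number of the 6 genes called in a comparison was recomputed 383 times, was the same 290 times and stayed within 1.5 times 354 times, so a single lost call need not count as a move. Only moves beyond 1.5 times follow. With the variance from the compared groups alone it was 5 for LIF/2i day 12 over N2B27 day 8 (3 before), 3 for NSC medium day 12 over N2B27 day 8 (1 before), 0 for N2B27 day 4 over MEFs (1 before), 2 for BKM_Sox2 day 18 over day 4 (1 before), 6 for BKM_FNV day 30 against day 24 (3 before), 1 for day 4 of the cocktails against MEFs (2 before) and 0 for NSCs against MEFs (1 before). With a pseudocount of 16 it was 5 and 3 for the same comparisons of LIF/2i and NSC medium with N2B27 day 8, 2 for BKM_FNV over BKM_Sox2 on Dox (4 before) and 0 for BKM_Sox17 against BKM_Sox2 on Dox (1 before). With a pseudocount of 1 it was 0 for BKM_Sox17 day 18 against day 4 (1 before). With all libraries it was 0 for BKM_Sox17 against BKM_Sox2 on Dox, 0 for BKM_Sox17 day 18 against day 4, 1 for the interaction of BKM_FNV and BKM_Sox17 over days 4 to 18 (2 before) and 1 for BKM_FNV day 30 against day 24. The cause of these moves was not tested.

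With each library left out in turn the number ran from 1 to 2 for N2B27 day 4 over MEFs (2 without either MEF library), from 0 to 1 for BKM_Sox17 against BKM_Sox2 on Dox, from 0 to 1 for BKM_Sox17 day 18 against day 4, from 1 to 2 for BKM_Sox2 day 18 over day 4 (2 without BKM_Sox2 day 18 replicate 1), from 1 to 2 for the interaction, from 1 to 3 for BKM_FNV day 30 against day 24, from 1 to 2 for day 4 of the cocktails against MEFs and from 1 to 2 for NSCs against MEFs (2 without MEF replicate 2). A lone library left in a group was assumed to vary like the other groups, and leaving out the only library of a group gave no value.

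Replicate numbers did not pair the libraries: the deviations of same-numbered libraries correlated within 0.1 of zero in every pair of groups. With the replicate block the number for N2B27 day 4 over MEFs was 2, and no other number moved by more than 1.

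Over all genes, putting the library that stood apart back changed the counts called from 4754 to 2112 (BKM_FNV day 18 against day 4), 3952 to 1706 (BKM_Sox17, same days), 3522 to 1470 (BKM_Sox2), 2152 to 737 (K_FNV), 443 to 38 (the interaction), 772 to 448 (BKM_FNV against BKM_Sox17 on Dox), 3699 to 2266 (after Dox), 3144 to 6694 (BKM_FNV against BKM_Sox2 after Dox), 826 to 536 (BKM_Sox17 against BKM_Sox2 on Dox), 3070 to 1413 (BKM_FNV day 30 against day 24), 5862 to 3600 (BKM_FNV day 30 against NSCs) and 3762 to 2384 (day 4 against MEFs). With a pseudocount of 16 the on-Dox counts of BKM_FNV against BKM_Sox17, BKM_FNV against BKM_Sox2 and BKM_Sox17 against BKM_Sox2 were 401, 730 (1283 before) and 457. N2B27 day 8 against day 4 went from 964 to 342 with the compared groups alone, to 628 without N2B27 day 4 replicate 1 and to 540 without N2B27 day 8 replicate 2. The interaction count was 295 without BKM_FNV day 4 replicate 2.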
